A study of Mus musculus with 16 samples.

Results

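The linker histone H1 genes Hist1h1a, Hist1h1b, Hist1h1c, Hist1h1d and Hist1h1e are 5 of the 22392 gene symbols of a table of RNA-seq and Ribo-seq counts from mouse cells. They were chosen by name and by measured values, since the change in translation efficiency (TE, footprints relative to RNA) of Hist1h1a in KO2 and KO3 led to their choice. The RNA, footprint and TE values of Hist1h1a in KO2 and KO3, and in KO1, which shares the WT replicates with them, are therefore given as a description, with no test. Each gene stands with the transcript that has the largest sum over the 16 libraries, and all 5 genes have 1 transcript in the table.

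WT Hepa1-6 cells, a mouse hepatoma line, were compared with 3 Eef1d exon 5 KO lines made from them by CRISPR/Cas9, KO1, KO2 and KO3. Eef1d encodes a subunit of the translation elongation factor complex EEF1B, and the edited lines were cut by a pair of guides in the introns beside exon 5, S1 and S4 in KO1 and KO2 and S2 and S4 in KO3. Each KO line grew from a single cell, so that a KO line and 1 clone cannot be told apart. Each line had 2 replicates, and each lysate gave 1 RNA-seq and 1 Ribo-seq library. The labels name no treatment of any line, and the KO lines share the 2 WT replicates as controls.

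Reads of Eef1d were counted on a transcript with exon 5 and on one without it, which differ by 24 codons. In WT RNA-seq the count with exon 5 was 116% of the count without it in both replicates. It was between 89.8% and 92.6% in the 6 RNA-seq libraries of the KO lines. The WT Ribo-seq libraries gave 113% and 114%, and the 6 of the KO lines from 96.0% to 98.9%. The ratio was thus below that of WT in every library labelled KO. Reads in sequence that both transcripts hold can count on both, so the ratio is not the share of transcripts with exon 5. The study screened its clones by PCR and sequencing for loss of exon 5 on all alleles.

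Over the 67139 transcripts, the RNA-seq libraries ranged from 24726706 to 30748268 counts. The Ribo-seq libraries ranged from 2604223 (KO1 replicate 2) to 11147904 (KO1 replicate 1). Of the hepatocyte markers, Alb was the most abundant, 1 of 15 (Fgg) was at 0 in all RNA-seq libraries, and the summed level was 2662 and 2485 CPM (counts scaled to the size of the library) in WT, 1018 and 1015 in KO1, 2080 and 1958 in KO2, with 3599 and 3774 in KO3. The endothelial markers summed to at most 2.83 CPM and the blood cell markers to at most 22 CPM in any RNA-seq library. The fibroblast markers summed to between 713 and 1102 CPM, nearly all of it from Dcn, a collagen-binding proteoglycan, with Thy1 at 0. Dcn had 890 CPM per kb of counted coding sequence in WT, and the next of those tested, Pdgfra and Col1a1, 2.51 and 0.18.

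Linker histones bind the DNA where it enters and leaves the nucleosome and compact chromatin into higher-order fibres. The 5 genes, which encode H1 subtypes also called H1f1, H1f5, H1f2, H1f3 and H1f4 in this order, are expressed mainly in S phase, along with DNA replication. Their mRNAs end in a conserved stem-loop in place of a poly(A) tail, and the stem-loop binding protein SLBP directs their processing, translation and decay. H1f0 and H1fx, linker histones outside the Hist1 cluster, have polyadenylated mRNAs.

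The stem-loop sites show what these mRNAs have in place of a poly(A) tail. The 5 genes are intronless and lie in the histone cluster on chromosome 13, and their coding sequences on GRCm38.p6 run from 23763717 to 23764358 on the plus strand (Hist1h1a), 21779883 to 21780554 on the minus strand (Hist1h1b), 23738849 to 23739487 on the plus strand (Hist1h1c), 23555090 to 23555755 on the plus strand (Hist1h1d) and 23621838 to 23622497 on the minus strand (Hist1h1e). In the 30 bases printed for each gene, 5′ to 3′ on the strand of the gene, capitals mark the stem-loop, whose 16 bases were identical in all 5 genes.
Hist1h1a: ccaacGGCTCTTTTCAGAGCCaccaacata
Hist1h1b: ccaaaGGCTCTTTTCAGAGCCacctagaga
Hist1h1c: caaaaGGCTCTTTTCAGAGCCaccactccc
Hist1h1d: caaacGGCTCTTTTCAGAGCCacccacaac
Hist1h1e: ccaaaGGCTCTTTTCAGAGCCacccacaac
The stem-loop began 33 bases after the stop codon in Hist1h1a, 30 in Hist1h1b, 24 in Hist1h1c, 31 in Hist1h1d and 40 in Hist1h1e. The RefSeq transcripts ended 4 or 5 bases past it in all 5 genes. The GENCODE vM21 transcripts ran further in Hist1h1c, Hist1h1d and Hist1h1e, by 840, 4884 and 1153 bases past the stem-loop. Counts were taken only on coding sequences, so that these ends lie outside the counted region.

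The promoters are shown as a description of the sequence before the start. The 150 bases before the RefSeq start (GRCm38.p6) are printed for Hist1h1a, for Hist1h1c and for Hist1h1e, on the strand of the gene, with capitals for 3 motifs searched on both strands: AAACACA (the H1 box), CCAAT and TATAAA. They lie at chr13:23763518-23763667, chr13:23738657-23738806 and chr13:23622559-23622708.
Hist1h1a: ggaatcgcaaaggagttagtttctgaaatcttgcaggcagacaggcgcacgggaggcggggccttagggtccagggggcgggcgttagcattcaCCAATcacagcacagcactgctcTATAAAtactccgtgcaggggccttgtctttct
Hist1h1c: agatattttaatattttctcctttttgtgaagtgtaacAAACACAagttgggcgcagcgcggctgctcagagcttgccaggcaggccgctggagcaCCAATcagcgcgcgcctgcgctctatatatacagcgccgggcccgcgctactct
Hist1h1e: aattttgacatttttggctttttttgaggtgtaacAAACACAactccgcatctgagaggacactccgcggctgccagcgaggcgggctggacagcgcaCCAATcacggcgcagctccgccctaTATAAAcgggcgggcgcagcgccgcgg
AAACACA was found once each in Hist1h1b, Hist1h1c, Hist1h1d and Hist1h1e, between 112 and 122 bases before the start, and the 7 letters are not in this window of Hist1h1a. CCAAT was found in all 5 genes, between 51 and 56 bases before the start on the strand of the gene. TATAAA was found in Hist1h1a, Hist1h1b, Hist1h1d and Hist1h1e, between 26 and 33 bases before the start on the strand of the gene, and not in Hist1h1c. Of 32851 RefSeq promoters cut to the same 150 bases, 3.53% held AAACACA, 24.5% held CCAAT and 7.57% held TATAAA. A match of these letters is a description of the sequence, not a site of binding. The part of promoter sequence in the RNA changes was not tested.

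The coding sequences decide how far a short read belongs to 1 gene. Identity over the aligned coding sequences was highest for Hist1h1d with Hist1h1e (83.9%) and Hist1h1c with Hist1h1d (83.2%), and that of Hist1h1a with the other 4 genes was from 68.9% to 71.8%. Of the 30-base windows of the counted sequence, 0.515% of Hist1h1a and 5.06% of Hist1h1b had another exact match in the genome. These shares were 30.7% in Hist1h1c, 36.7% in Hist1h1d and 32.4% in Hist1h1e, and every such window of these 3 genes matched another of the 5 genes. With up to 2 mismatches allowed, 5.32% of the windows of Hist1h1a and 58.4% of those of Hist1h1c matched another of the 5 genes. In most Ribo-seq libraries the counts over 1 transcript per gene sum to more than the uniquely mapped reads that the study lists. Whether reads that fit more than 1 place were counted, and where, is not stated in the sources used here, so counts of Hist1h1c, Hist1h1d and Hist1h1e are uncertain where they share sequence.

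WT cells held much RNA of 4 linker histone genes and little of Hist1h1a. Among 9937 genes with a mean of at least 50 RNA-seq counts in WT, and per kb of counted coding sequence, Hist1h1e and Hist1h1c were at the 98.4th and 98.3rd percentile of RNA, Hist1h1d at the 97.6th, Hist1h1b at the 96.5th and Hist1h1a at the 42.3rd. In RNA-seq CPM per kb, the 2 WT replicates gave 1278 and 1210 for Hist1h1e, 1184 and 1057 for Hist1h1c, 807 and 719 for Hist1h1d, 482 and 445 for Hist1h1b, and 24.3 and 20.8 for Hist1h1a. No neighbours in this order overlapped, but Hist1h1e and Hist1h1c were close.

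Footprints followed another order. Hist1h1d had 3593 and 3072 footprint CPM per kb in WT, Hist1h1e had 3435 and 3228, and Hist1h1c had 3389 and 3027, so that these 3 genes overlapped. Hist1h1b had 1778 and 1533 and Hist1h1a 157 and 128. The ratio of footprint CPM to RNA CPM was highest in Hist1h1a, with 6.46 and 6.19 in the WT replicates, and then in Hist1h1d (4.45 and 4.27), Hist1h1b (3.69 and 3.44), Hist1h1c (2.86 and 2.87) and Hist1h1e (2.69 and 2.67).

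All 5 genes had more footprints per RNA read than nearly all other genes of WT cells. On the log2 scale the ratio was 2.66 in Hist1h1a, 2.13 in Hist1h1d, 1.84 in Hist1h1b, 1.52 in Hist1h1c and 1.42 in Hist1h1e, from the 99.0th to the 99.7th percentile of the 9937 genes, whose median was -0.22. H1f0 and H1fx, which are polyadenylated, were at the 81.1st and 79.2nd percentile of the same ratio. The replication-dependent core histones (H2A, H2B, H3 and H4 genes whose mRNAs also lack a poly(A) tail) had a median percentile of 98.8 over 59 genes ranked, and the replacement core histones, which are also made outside S phase and mostly from polyadenylated mRNAs, one of 60.1 over 8 genes.

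The ratio has RNA-seq in its denominator, and the sources differ on how RNA was selected: the labels of the samples name polyA RNA, whereas the protocol names rRNA depletion. A poly(A) selection recovers little RNA without a tail. In these RNA-seq libraries the replication-dependent core histones had a median RNA percentile of 98.9. The part of RNA selection in the ratios of the tailless mRNAs was not tested, and the ratios are therefore not read as translation rates. Their order and percentiles among genes are a description, and changes are read between lines. Core histone genes also share short reads with near-identical copies. Hist1h2bm and Hist2h2ab, named after their values were seen, had 54.9 and 35.0 RNA CPM per kb in WT but 2133 and 1444 footprint CPM per kb, and the part of shared reads in the ratios was not tested.

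**Figure D1:**
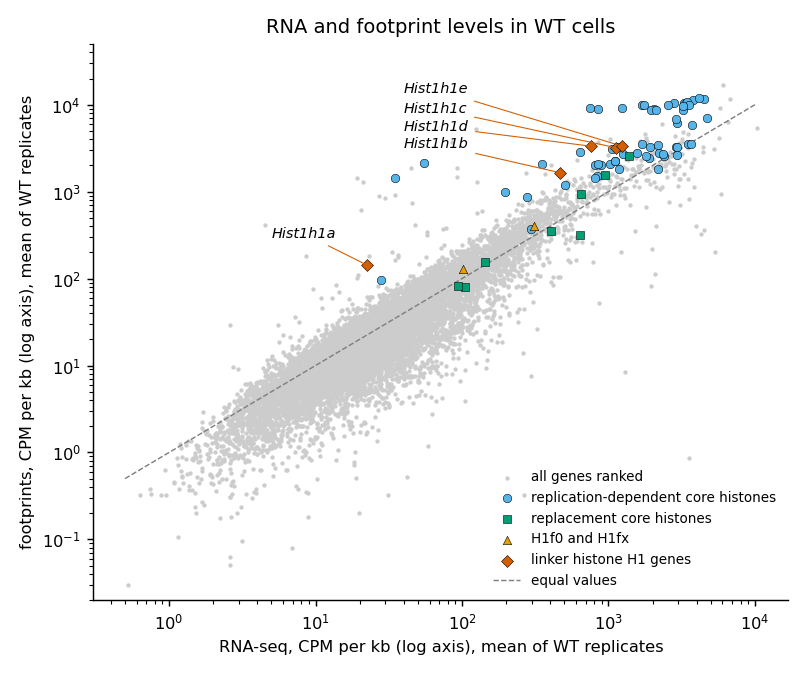
RNA-seq CPM per kb (x, log axis) against footprint CPM per kb (y, log axis), means of the 2 WT replicates, for genes with a mean of at least 50 RNA-seq counts in WT and footprints above 0, with histone groups marked and the dashed line at equal values. All 5 linker histone H1 genes lie above the line, and Hist1h1a lies far to the left of the other 4 genes.

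Within the family, Hist1h1a was 0.629% and 0.588% of the summed RNA CPM of the 5 genes in the WT replicates, and 1.24% and 1.14% of the summed footprint CPM. Hist1h1e was the largest share of RNA, with 34.1% and 35.3%. The summed RNA of the family was 2364 and 2162 CPM in WT, 2259 and 2109 in KO1, 2236 and 2494 in KO2, with 2981 and 3180 in KO3. The KO3 libraries were above all 6 others, and so were those of the summed footprints, with 9179 and 10174 CPM against at most 7965.

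In KO3 the RNA and the footprints of Hist1h1b, Hist1h1c, Hist1h1d and Hist1h1e rose together. Hist1h1b had 309 and 286 RNA CPM in WT, 289 and 270 in KO1, 311 and 332 in KO2, with 438 and 444 in KO3. Hist1h1c had 721 and 643 in WT, 662 and 604 in KO1, 648 and 731 in KO2, with 949 and 1006 in KO3. Hist1h1d had 513 and 457 in WT, 465 and 422 in KO1, 440 and 498 in KO2, with 633 and 685 in KO3. In each of these genes both KO3 replicates were above all other RNA-seq libraries, while WT, KO1 and KO2 lay near each other. How many of all genes separate in this way, in RNA or in footprints, was not counted. In bulk samples, more cells of a kind (such as cells in S phase) and more RNA per cell cannot be told apart, nor can fewer cells and less RNA per cell. Hist1h1e, the most abundant member, had 805 and 762 in WT, 828 and 797 in KO1, 806 and 896 in KO2, with 954 and 1040 in KO3, again with no overlap.

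The RNA changes in KO3 were 0.57 ± 0.0506 (log2, SE, n = 2 replicates in each line) for Hist1h1b, 0.52 ± 0.0455 for Hist1h1c, 0.44 ± 0.0491 for Hist1h1d and 0.35 ± 0.0438 for Hist1h1e, or 1.48-, 1.44-, 1.36- and 1.28-fold. The adjusted p-values of edgeR's quasi-likelihood test were 1.01e-13, 5.09e-14, 9.47e-11 and 2.93e-09. All 4 genes tested were called at an adjusted p under 0.05, where 37% of 37543 transcripts were called in either direction. Since so many transcripts changed in KO3, the call alone does not set these genes apart, and all 4 were higher.

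Footprints followed with slightly smaller changes. Hist1h1c had 2064 and 1844 footprint CPM in WT, 1811 and 1628 in KO1, 1826 and 2112 in KO2, with 2574 and 2845 in KO3. In this gene, as in Hist1h1b, Hist1h1d and Hist1h1e, both KO3 replicates were above all other Ribo-seq libraries. The log2 changes in KO3 were 0.47 ± 0.0609 (Hist1h1b), 0.45 ± 0.0587 (Hist1h1c), 0.37 ± 0.0607 (Hist1h1d) and 0.28 ± 0.057 (Hist1h1e), with edgeR adjusted p-values of 8.34e-09, 1.08e-08, 2.68e-06 and 0.000116. All 4 were called, against 24.5% of 32631 transcripts. With DESeq2 the footprint change of Hist1h1d was 0.37 with an adjusted p of 0.0773, and the other 3 were called.

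**Figure D2:**
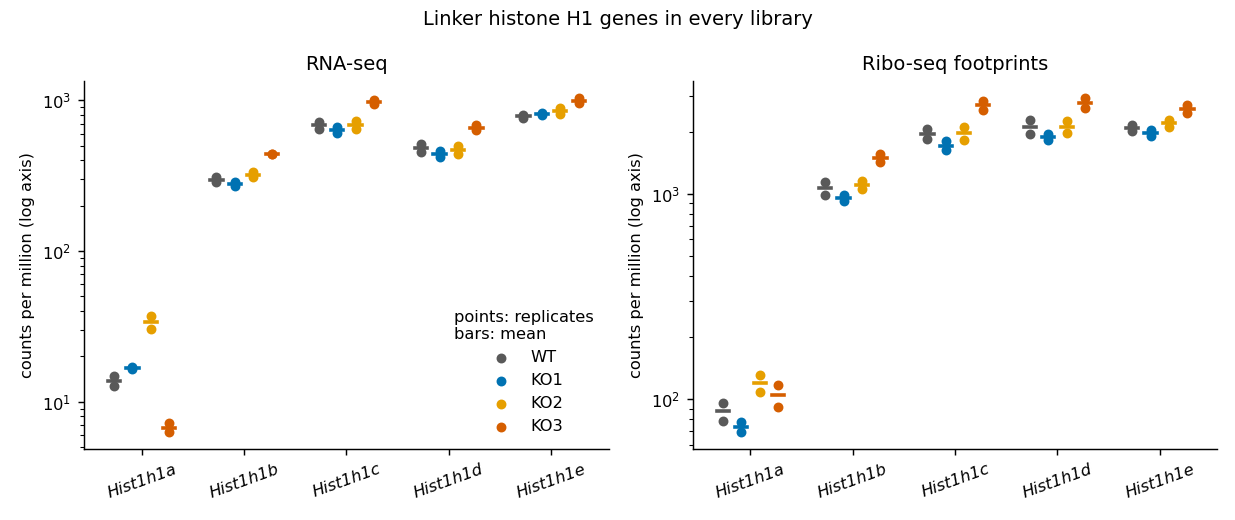
CPM (log axis) of the 5 linker histone H1 genes in RNA-seq (left) and Ribo-seq (right), with a point for each replicate and a bar at the mean of each line. In Hist1h1b to Hist1h1e both KO3 points lie above all others in both assays, whereas the RNA of Hist1h1a is lowest in KO3 and highest in KO2.

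TE of these 4 genes was called in no clone, which does not show that TE did not differ. In KO3 the TE changes were between -0.07 and -0.10 (log2), with SE from 0.0694 to 0.077 and edgeR adjusted p-values from 0.886 to 0.915. By edgeR 0 of the 4 genes were called and 0 had an unadjusted p under 0.05, and DESeq2 called 0, against 0.0939% of 38347 transcripts in edgeR. In KO2 the TE changes lay between -0.07 and 0.03, with 0 called by either tool and 0 at an unadjusted p under 0.05, against 0.0157% of 38293 transcripts (6, and 10 with a term for the lysate that gave both libraries). In KO1 they lay between -0.03 and -0.14, and edgeR called 0 of the 4 genes, with 0 at an unadjusted p under 0.05, as DESeq2 called 0, against 0.168% of 38614 transcripts (65, and 295 with the lysate term).

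In KO1 and KO2 few of Hist1h1b to Hist1h1e were called. In KO1, Hist1h1d RNA was lower by a log2 change of -0.12 ± 0.0484 (edgeR adjusted p = 0.0428), 1 of 4 genes called, where 40.6% of 37569 transcripts were called. Hist1h1c footprints were lower by -0.17 ± 0.0602 (edgeR adjusted p = 0.0327), also 1 of 4, where 23% of 31875 transcripts were called. Neither call held with DESeq2 (adjusted p of 0.234 and 0.247), and without replicate 2 of KO1, the smallest Ribo-seq library, the footprint change of Hist1h1c was -0.11 with an adjusted p of 0.272. Single libraries decided both values: without replicate 1 of WT the RNA change of Hist1h1d was -0.03 (edgeR adjusted p = 0.751) and the footprint change of Hist1h1c -0.09 (0.52), and without replicate 2 of KO1 that of Hist1h1d RNA was -0.05 (0.44). With the replicate number as a block, edgeR called 2 of the 4 genes lower for RNA (Hist1h1c and Hist1h1d), where 44.7% of transcripts were called, and 3 of the 4 lower for footprints (Hist1h1e was not called), where 24.8% were.

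In KO2, edgeR called 0 of the 4 genes for RNA, with 1 at an unadjusted p under 0.05 (Hist1h1e, log2 change 0.12 ± 0.0489, edgeR adjusted p = 0.105), where 15.4% of 37472 transcripts were called. It called 0 of 4 for footprints, with 0 at an unadjusted p under 0.05, where 8.72% of 32278 transcripts were called. DESeq2 called 0 in both. With the replicate block edgeR called Hist1h1e RNA in KO2 (adjusted p = 0.0407), where 19.1% of transcripts were called.

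The clones differed from each other in the RNA and the footprints of these 4 genes, by a test of the difference itself. RNA in KO3 was above that in KO1 by 0.64 (log2) in Hist1h1b, 0.61 in Hist1h1c, 0.56 in Hist1h1d and 0.28 in Hist1h1e, with edgeR adjusted p-values over the 3 clones of 7.79e-14, 5.02e-14, 2.89e-12 and 4.64e-06. The 4 genes were called, where 66.4% of 38564 transcripts were. Footprints in KO3 were above those in KO1 by 0.62, 0.62, 0.52 and 0.36, with 51.5% of 34303 transcripts called, and TE of the 4 genes was not called (edgeR adjusted p from 0.891 to 1, where 1.06% of 39662 transcripts were called).

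**Figure D3:**
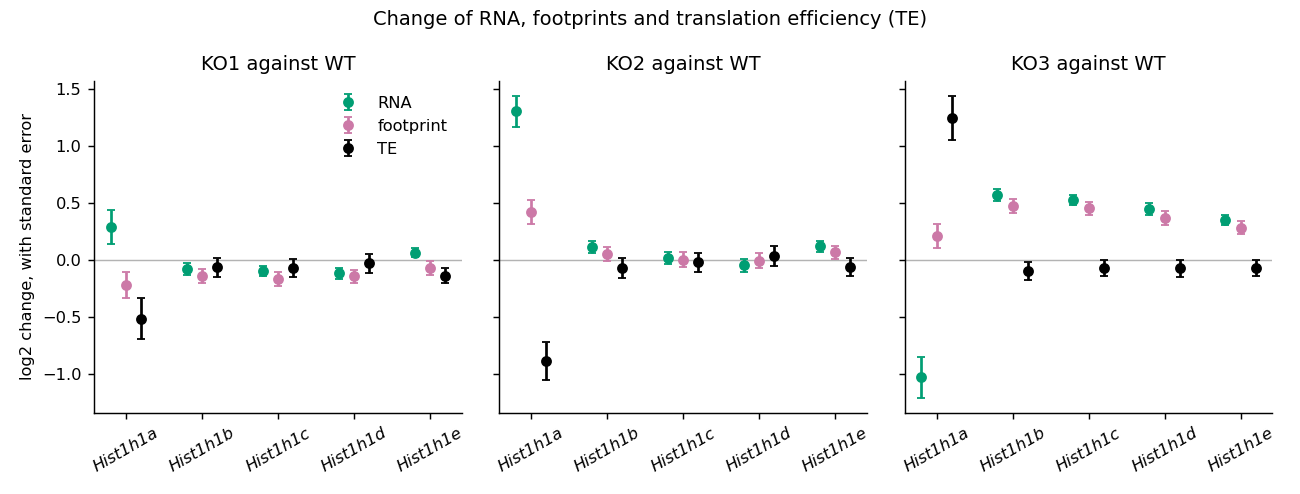
Log2 change of RNA, footprints and TE against WT in each KO line, with standard errors from edgeR's quasi-likelihood fit. In KO3, RNA and footprints of Hist1h1b to Hist1h1e lie between 0.28 and 0.57 and TE near 0, and Hist1h1a has TE changes of -0.89 in KO2 and 1.24 in KO3.

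Hist1h1a, the least abundant member, had RNA and footprints that moved apart. Its RNA-seq counts were 163 and 149 in WT, 189 and 180 in KO1, 326 and 459 in KO2, with 91 and 77 in KO3, or 14.9 and 12.7 CPM for WT, 16.4 and 17.0 for KO1, 30.5 and 37.3 for KO2, and 7.18 and 6.27 for KO3. Hist1h1a RNA was thus highest in KO2 and lowest in KO3, and the ranges of the 4 lines did not overlap. The log2 change of RNA against WT was 1.30 ± 0.134 for KO2 and -1.03 ± 0.177 for KO3, or 2.47- and 0.49-fold.

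The footprint counts of Hist1h1a were 342 and 190 in WT, 381 and 81 in KO1, 434 and 392 in KO2, with 372 and 377 in KO3. In CPM they were 96.1 and 78.6 in WT, 77.5 and 69 in KO1, 108 and 131 in KO2, with 92.0 and 117 in KO3. The KO3 range overlapped with those of WT and KO2, and the KO1 replicates lay just below those of WT. The log2 footprint change was 0.42 ± 0.103 in KO2 and 0.21 ± 0.104 in KO3, where leaving out 1 replicate gave between 0.03 and 0.39.

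Footprints per RNA read of Hist1h1a therefore moved in opposite directions in KO2 and KO3. The ratio was 6.46 and 6.19 in WT, 4.72 and 4.07 in KO1, 3.56 and 3.52 in KO2, with 12.8 and 18.7 in KO3. The 4 lines did not overlap, and the 2 KO3 replicates were the farthest apart. The log2 TE change was -0.89 ± 0.168 in KO2 and 1.24 ± 0.194 in KO3, and in KO3 it was 0.96 without replicate 2 and 1.53 without replicate 1. In both lines the RNA changed by more than the footprints did.

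The KO1 libraries were not used to choose the gene, but the WT replicates they are compared with were, so KO1 is described in the same way. Hist1h1a RNA had a log2 change of 0.29 ± 0.147 in KO1, footprints one of -0.22 ± 0.113 and TE one of -0.52 ± 0.18. Both KO1 ratios were below both WT ratios.

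The share of the family's RNA held by Hist1h1a was 1.36% and 1.49% in KO2 and 0.241% and 0.197% in KO3. Its share of the family's footprints was 1.53% and 1.65% in KO2, above both WT replicates (1.24% and 1.14%). In KO3 that share was 1.00% and 1.15%, near that of WT. In KO3 the footprints of the other 4 genes were also at their highest, and 12 of 583 windows of Hist1h1a lie within 1 mismatch of another member. The part of such reads in the footprint count of Hist1h1a was not tested.

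**Figure D4:**
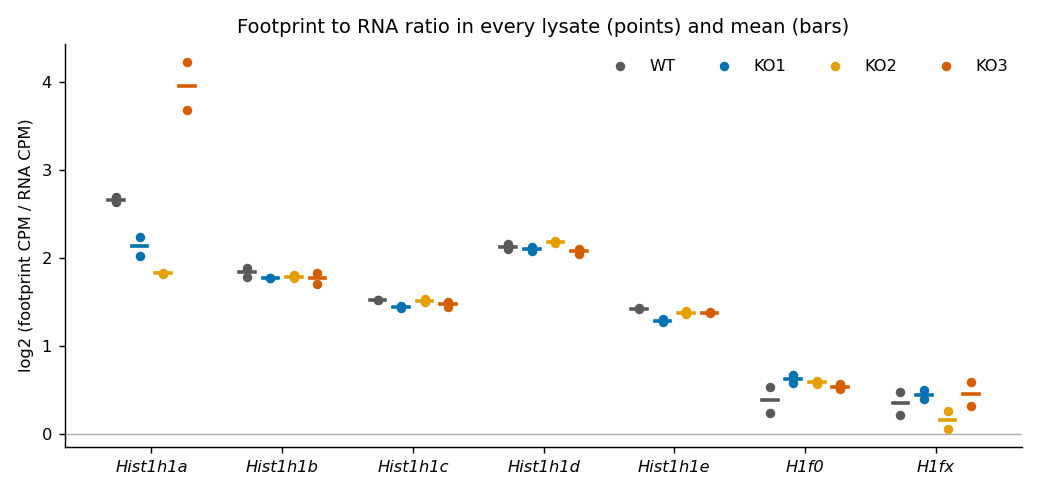
Log2 ratio of footprint CPM to RNA CPM for the 5 linker histone H1 genes, H1f0 and H1fx, with a point for each lysate and a bar at the mean of each line. Hist1h1a spans from 1.81 in KO2 to 4.22 in KO3, whereas Hist1h1b to Hist1h1e stay within 1.27 and 2.19 in all lysates.

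Of the polyadenylated linker histones, H1f0 rose and H1fx fell in KO3. H1f0, which accumulates in cells that stop dividing, had 168 and 175 RNA CPM in WT, 89.8 and 93.2 in KO1, 204 and 226 in KO2, with 301 and 343 in KO3, with no overlap between lines. Its RNA changed by -0.90 ± 0.0641, 0.33 ± 0.0621 and 0.91 ± 0.0582 in the 3 clones, KO1 to KO3 (edgeR adjusted p of 3.81e-18, 0.000446 and 5.1e-19), and its footprints by -0.67, 0.50 and 1.02, all called. H1fx, the most divergent somatic subtype, had RNA changes of 0.58 in KO1 and -0.53 in KO3 (edgeR adjusted p of 2.34e-08 and 7.5e-06) and of 0.25 in KO2 (adjusted p = 0.0699). TE of both genes was not called in any clone, with edgeR adjusted p-values from 0.647 to 1.

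The germline linker histones were near or at 0. H1fnt and Hils1, of developing sperm, had no RNA-seq count in any library. Hist1h1t, the testis subtype of the same cluster, had between 0 and 3 RNA-seq counts in each library and from 4 to 22 footprints, and H1foo, of oocytes, between 0 and 13 RNA-seq counts.

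The replication-dependent core histones rose in KO3 as well. By edgeR, RNA of 51 of 60 tested rose and 0 fell in KO3, with a median log2 change of 0.30, where 2491 of all 11460 genes tested rose and 2555 fell with a median of -0.01. DESeq2 called 49 higher and 0 lower. In KO1, 12 rose and 5 fell (median 0.05), where 2642 of all 11515 genes rose and 2733 fell, and in KO2 8 rose and 0 fell (median 0.02), where 1253 of 11476 rose and 1029 fell. DESeq2 called 4 higher and 4 lower in KO1, and 3 higher and 0 lower in KO2. Single libraries decided both counts by edgeR. Without replicate 2 of KO1, 26 rose and 4 fell, without its replicate 1 there were 5 and 6, and without replicate 2 of WT 2 rose and 5 fell. Without replicate 1 of KO2, 32 rose and 0 fell (median 0.12), whereas 5 rose and 18 fell without its replicate 2 (median -0.08), and 4 rose without replicate 2 of WT. Footprints of 41 of 60 rose in KO3 and 0 fell by edgeR (median 0.21), where 1369 of all 10398 genes rose and 1644 fell. DESeq2 called 20 higher, and without replicate 2 of WT edgeR called 25, in both cases with 0 lower.

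Of the most abundant of these genes, the H3 genes Hist2h3c2, Hist1h3b and Hist1h3h had RNA changes of 0.45, 0.36 and 0.35 in KO3 (edgeR adjusted p of 1.74e-14, 2.19e-11 and 2.01e-10). Hist2h2ac, an H2A gene, was the 1 core histone called higher in all 3 clones, with log2 changes of 0.20, 0.25 and 0.44 from KO1 to KO3. TE was called by edgeR in 0 of 60 in each clone, with 11, 1 and 13 at an unadjusted p under 0.05 from KO1 to KO3, and DESeq2 called 0 in each. Of all transcripts, 2879 of 38614, 1797 of 38293 and 2446 of 38347 had an unadjusted p under 0.05 by edgeR, and 65, 6 and 36 were called. The TE change was above 0 in 29, 31 and 18 of the 60 from KO1 to KO3. With the lysate term edgeR called 2 in KO1, both higher. Near-identical copies of core histone genes share reads, so that single genes of this group are uncertain.

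Among the replacement core histones, RNA of 4 of 8 rose and 2 fell in KO3, 4 rose and 1 fell in KO1, and 0 rose and 3 fell in KO2. Of all genes tested, 2491 of 11460 rose and 2555 fell in KO3, 2642 of 11515 and 2733 in KO1, with 1253 of 11476 and 1029 in KO2. H3f3b, an H3.3 gene, changed by 0.56 in KO3 and by -0.34 in KO2 (edgeR adjusted p of 2.67e-15 and 2.05e-05) and H2afx, whose product marks DNA breaks, by 0.95 in KO3 and -0.39 in KO1 (1.45e-21 and 6.7e-08). H2afz, the H2A.Z gene, had a change of 0.15 in KO1 (edgeR adjusted p = 0.00758) and was not called in KO2 or KO3.

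The genes that act on histone mRNA held calls in both directions, as all genes tested did (2642 higher and 2733 lower of 11515 in KO1, 1253 and 1029 of 11476 in KO2, 2491 and 2555 of 11460 in KO3). Of 20 tested, 5 rose and 3 fell in KO1, 2 rose and 3 fell in KO2, and 3 rose and 4 fell in KO3, with median log2 changes of 0.01, -0.01 and -0.00086. Snrpg, an Sm protein of spliceosomal and U7 snRNPs and the most abundant of them, rose by 0.26 in KO1 and fell by 0.58 in KO3 on the log2 scale (edgeR adjusted p of 0.0002 and 8.75e-11). Its fellow Sm genes Snrpe and Snrpf had RNA changes of 0.22 in KO2 and -0.25 in KO3 (Snrpe, edgeR adjusted p of 0.0189 and 0.00295) and of 0.22 in KO1 and -0.28 in KO2 (Snrpf, 0.00271 and 0.0045), and neither was called in the remaining clone. Slbp, Npat (the coactivator of histone gene transcription) and Lsm11 (of the U7 snRNP) are named here after their values were seen, for their roles. Slbp RNA had changes of 0.20, 0.02 and -0.000582 and was not called in any clone. Npat fell by 0.57 and Lsm11 by 0.52 in KO1 (edgeR adjusted p of 3.75e-07 and 0.00435), and neither was called in KO2 or KO3.

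Of 48 S phase genes tested, RNA of 13 rose and 15 fell in KO3 (median 0.01), where 2491 of all 11460 genes rose and 2555 fell. In KO1, 19 rose and 11 fell (median 0.16), where 2642 of 11515 rose and 2733 fell, and in KO2 6 rose and 3 fell (median 0.05), where 1253 of 11476 rose and 1029 fell. Mcm5, of the replicative helicase, rose in all 3 clones, by 0.38, 0.29 and 0.33 (edgeR adjusted p of 1.75e-07, 0.00133 and 8.64e-06), whereas Pcna, the sliding clamp, was called in KO1 alone, with 0.22 (adjusted p = 0.000709). Mcm7 and Mcm3, of the same helicase, changed in both directions, by 0.23, -0.20 and 0.41 (Mcm7) and by 0.28, 0.31 and -0.38 (Mcm3) from KO1 to KO3, all called by edgeR. Of 30 G2/M genes, 9 rose and 6 fell in KO3, 13 rose and 6 fell in KO1, and 4 rose and 1 fell in KO2. Cdk1, the mitotic kinase, fell by 0.23 in KO1 and 0.21 in KO2 on the log2 scale (edgeR adjusted p of 0.000331 and 0.0154). Ube2c, of the ubiquitin pathway of mitosis, rose by 0.33 in KO3 (edgeR adjusted p = 1.94e-06), and Birc5, survivin, was called in no clone, with -0.13 in KO3 (adjusted p = 0.147).

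Among chaperones and competitors of linker histones, 3 of 10 rose and 2 fell in KO3, 6 rose and 3 fell in KO1, and 4 rose and 1 fell in KO2. The counts over all genes are those given with the S phase genes. Ptma, prothymosin alpha, which binds H1, had RNA changes of 0.35 in KO1 and 0.27 in KO2 (edgeR adjusted p of 1.5e-11 and 0.000868), and its TE was the 1 call of the group, at -0.49 ± 0.0707 in KO1 (adjusted p = 2.18e-05). Hmga1, an AT-hook protein that competes with H1 for DNA, fell by 0.73 in KO3 and 0.15 in KO1 on the log2 scale (edgeR adjusted p of 2.93e-16 and 0.0149). Hmgb1, which binds the same linker DNA, rose by 0.43 in KO1 and fell by 0.17 in KO2 (edgeR adjusted p of 7.02e-15 and 0.0111).

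Hepatocyte markers moved between the lines at the same time. From KO1 to KO3, the RNA of Alb changed by -1.5, -0.63 and 1.25 and that of Afp, the fetal counterpart of albumin, by -1.03, -0.34 and 0.65, all called by edgeR. Trf (transferrin) and Fgb (fibrinogen beta) fell in all 3 clones, with log2 changes of -1.74, -0.29 and -0.63 for Trf and of -1.38, -2.44 and -0.72 for Fgb. Of the 9 markers tested, 0 rose and 8 fell in KO1 (median -1.03), 1 rose and 4 fell in KO2 (median -0.16), and 3 rose and 4 fell in KO3 (median -0.01). Of all genes tested, 2642 of 11515 rose and 2733 fell in KO1, 1253 of 11476 and 1029 in KO2, with 2491 of 11460 and 2555 in KO3. The part of these shifts in the changes of the H1 genes was not tested.

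**Figure D5:**
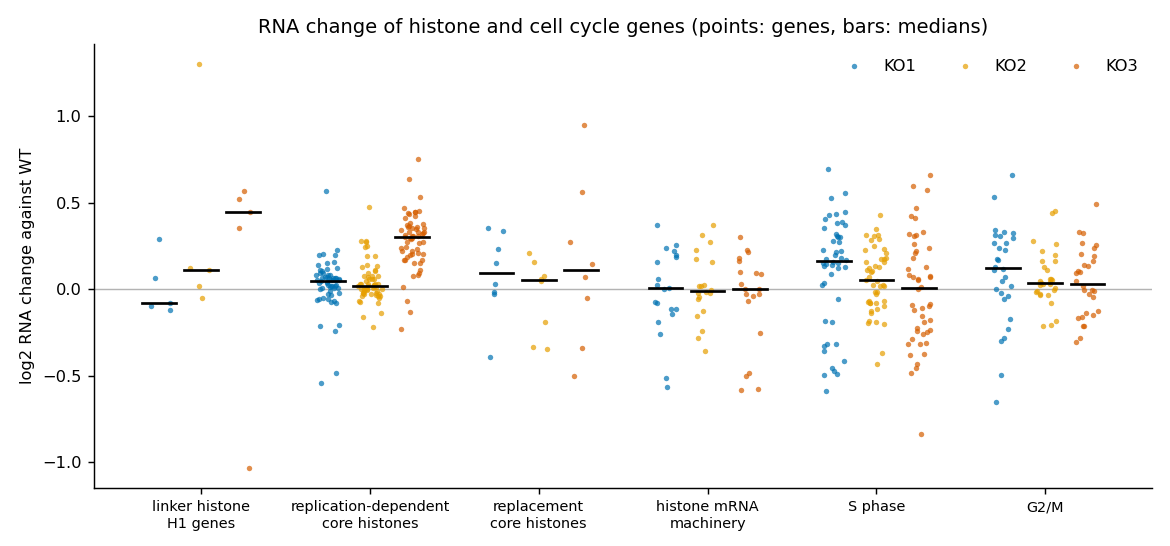
Log2 RNA change against WT of the genes of each group in KO1, KO2 and KO3, with a point for each gene tested and a bar at the median (for the linker histone H1 genes, over all 5). In KO3 the core histones lie around 0.30 and the S phase genes around 0.01, and Hist1h1a is the low point of the linker histones in KO3.

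Likeness of RNA patterns was measured by Pearson's r of log2(CPM + 1) over the 8 RNA-seq libraries, against 10000 other genes, as a description in which replicates of a line share their source. Hist1h1c was most like Hist1h1d (r = 0.994), then Hist1h3e (0.987) and Slc25a20 (0.986), and Hist1h1d was most like Hist1h1c, Hist1h3e (0.991) and Rrbp1 (0.984). Hist1h1b was most like Gm29427 (0.993), Samd1 (0.989) and Dcbld2 (0.989), and Hist1h1e most like Cep295nl, Tmem186 and Pik3c2b (0.983, 0.983 and 0.982). Hist1h1a was most like Ddr2 (0.989), Osgin1 (0.988) and Rhou (0.988). Among Hist1h1b to Hist1h1e, r was from 0.909 to 0.994, and that of Hist1h1a with them was from -0.51 to -0.73.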

How the data were processed

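Per the labels and the methods of the study, the authors trimmed adapters with fastp 0.21.0, removed reads of noncoding RNA, aligned with STAR 2.7.0a to mm10 and GENCODE vM23, and deposited raw counts per transcript at the A-site on coding sequences trimmed by 5 codons at each end. The deposited counts are whole numbers without normalization. Changes were tested with edgeR 4.0.16 (R 4.3.3) by the quasi-likelihood test over all transcripts kept by filterByExpr, with TMM within each assay and Benjamini-Hochberg adjustment, called at an adjusted p under 0.05. RNA and footprints used 4 libraries and TE, the interaction of line and assay, 8. The clones were compared with each other by a joint test of KO2 and KO3 against KO1 over all libraries. The SE is the absolute log2 change divided by the square root of F. CPM were TMM-scaled over 1 transcript per gene, the one with the largest total. DESeq2 1.42.0 was an alternative, as were a replicate block, a lysate block, other scalings and filters, all lines in 1 fit, thinned libraries and leaving out each replicate. The study calls its replicates biological, while the labels do not say that they were separate cultures, so p-values measure the spread between these samples. The step was tested on simulated data.

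The members and gene lists were chosen with earlier results of these data known. Genes were named by rule: of each list, the 3 most abundant in WT and up to 3 called for RNA in all clones in 1 direction. Of the endothelial and blood cell markers only summed levels are given, and of the fibroblast markers also the levels of the 3 most abundant in WT. RNA-seq and Ribo-seq of a replicate come from 1 lysate, and their differences between replicates correlated across 2180 genes (r from 0.153 to 0.36 in the 4 lines). Windows and promoters were read from GRCm38.p6 and RefSeq. All 5 genes matched.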

Additional observations from a re-analysis of the deposited data

Results flagged for a closer look

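RNA differed between the 3 clones in Hist1h1b (edgeR adjusted p = 7.79e-14), Hist1h1c (5.02e-14), Hist1h1d (2.89e-12) and Hist1h1e (4.64e-06), and so did footprints (edgeR adjusted p of 2.93e-15, 2.74e-16, 2.06e-12 and 4.4e-07). Of all transcripts, 66.4% were called in this test for RNA and 51.5% for footprints, so the calls alone do not set these genes apart. In each of these genes the KO3 libraries were above those of KO1 and KO2. TE of Hist1h1a moved in opposite directions in KO2 and KO3, with a log2 difference of 2.13 between them in the fit over all 16 libraries. This difference was not tested, since it led to the choice of the genes.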

How the results depend on the processing

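The RNA and footprint changes of Hist1h1b to Hist1h1e in KO3 against WT and against KO1 kept their direction under all alternatives run, and the test between the clones called all 4 genes in each. All were called in KO3 against WT except Hist1h1d footprints with DESeq2. KO2 minus KO1 turned to -0.02 in the RNA of both Hist1h1d and Hist1h1e without replicate 2 of KO2. Leaving out replicates in the comparison between the clones was chosen after seeing the data. In the tests made, no TE change of Hist1h1b to Hist1h1e was called under any alternative. The 1 member called for RNA in KO1 became 0 with DESeq2's size factors, all lines in 1 fit, thinned libraries or DESeq2, and 2 without a filter on low counts. The 0 called for RNA in KO2 became 1 without that filter. The 1 called for footprints in KO1 became 0 with thinned libraries or DESeq2. Over all 5 genes the median log2 footprint change in KO1 was -0.145, and -0.166 with at least 10 counts in every library. Leaving out 1 replicate gave medians between -0.246 (without WT replicate 2) and -0.0341 (without WT replicate 1). Leaving out 1 replicate gave median log2 RNA changes of Hist1h1b to Hist1h1e in KO2 between -0.0127 (without KO2 replicate 2) and 0.134 (without WT replicate 1). Hist1h1d RNA in KO2 was at -0.14 without KO2 replicate 2. For KO1, values with a replicate left out are given above for Hist1h1d RNA and Hist1h1c footprints. The counts of calls are of Hist1h1b to Hist1h1e, in KO1 as well, and leave out Hist1h1a. The cause was not tested.

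Of Hist1h1b to Hist1h1e, edgeR with the replicate block called 2 for KO1 RNA and 1 for KO2 RNA. For KO1 footprints it called all but Hist1h1e. Of all transcripts, 44.7%, 19.1% and 24.8% were called in these fits, and no other call of these genes changed. No label pairs the replicates of different lines. The deviations of same-numbered replicates correlated with those of WT at r of 0.368, 0.0988 and 0.113 in RNA-seq and of 0.248, 0.197 and 0.16 in Ribo-seq, from KO1 to KO3.

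With a minimum mean of 10 counts in WT, the RNA percentiles of Hist1h1a to Hist1h1e became 49.6, 97, 98.5, 97.9 and 98.6, and the TE percentiles 99.5, 98.9, 98.5, 99.1 and 98.4. On single WT replicates the TE percentile was from 99 to 99.1 for Hist1h1c and 98.9 for Hist1h1e.

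Over all transcripts, DESeq2 called 9679, 3019 and 8780 for RNA in KO1, KO2 and KO3, where edgeR called 15261, 5762 and 13880, and for footprints 2058, 658 and 2733 against 7346, 2814 and 7988. TE calls ranged from 31 (without WT replicate 1) to 295 (lysate block) in KO1 against 65, from 1 (without WT replicate 2) to 10 (lysate block) in KO2 against 6, and from 3 (without WT replicate 2) to 49 in KO3 against 36. TE calls between the clones ranged from 191 (without KO1 replicate 1) to 744 (replicate block) against 419. Depth limits Hist1h1a most, with 77 to 459 RNA-seq counts and 81 to 434 footprints.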
